A study of Mus musculus with 12 samples.

Results

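The miR-181 family was examined in pancreatic islets of adult male mice whose mothers had been fed a low-protein or a control diet in pregnancy. Its members were taken by name: spots of the panel called miR-181a, miR-181b, miR-181c or miR-181d, whatever the species prefix or arm, with starred strands (marked #) left out. This gave 2 of the 750 miRNA spots, 1 for miR-181a and 1 for miR-181c, both with a ratio. MiR-181b and miR-181d were not analysed here. In the authors' deposited table the members lay on opposite sides of 1, with miR-181a at 1.28 and miR-181c at 0.693, low-protein over control. Neither was 1.5-fold from 1.

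The study held 6 LP0.5 samples (offspring of low-protein dams) and 6 Control samples (offspring of control-diet dams), all male C57BL/6 aged 2 to 3 months. The exposure was the mother's diet; the offspring's own diet is not stated in these sources. Islets are the hormone-secreting cell clusters of the pancreas that hold the beta cells. They were freed with collagenase, hand-picked and kept in culture overnight before total RNA was taken, and were read by TaqMan real-time PCR. The authors deposited 1 ratio, with no error, for each spot of the panel, whose assays form an A and a B set. Columns of per-sample values in another deposited table match no sample label and were not used, so the ratios are given without error or test. In bulk islet RNA, fewer cells of a type and less RNA per cell cannot be told apart.

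MicroRNAs (miRNAs) are short RNAs that guide Argonaute proteins to messenger RNAs and lower their output, with bases 2 to 8, the seed, doing most of the pairing. Each is cut from a hairpin, which can give a strand from its 5′ arm and another from its 3′ arm. In the miR-181 family the 5′ strands are the main products and share a seed. MiR-181a is best known from the thymus, where it sets how strongly T cell receptors signal, and miR-181b is known for restraining inflammatory signalling in blood vessel walls.

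The 4 mature 5′ strands are shown because they hold both members and their nearest relatives, in mouse RefSeq sequence of build GRCm38.p6, with the seed in capitals.
miR-181a-5p: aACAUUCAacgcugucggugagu
miR-181b-5p: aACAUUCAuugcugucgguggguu
miR-181c-5p: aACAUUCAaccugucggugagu
miR-181d-5p: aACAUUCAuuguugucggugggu
All 4 carry the seed ACAUUCA. The members are close to each other in sequence. MiR-181c-5p, of 22 bases, is the 23 bases of miR-181a-5p with 1 base missing at position 11, counted from the 5′ end; the first 10 and the last 12 bases are shared. MiR-181b-5p differs from miR-181a-5p by A9U, C10U and A21G and by 1 more base at its 3′ end. MiR-181d-5p differs from miR-181b-5p by C12U and lacks its last base. Among the 1679 mature mouse names in the RefSeq table, no name outside these 4 has the same bases 2 to 8. The nearest other name, 1 strand sharing 6 bases of the seed, was not matched to any panel name. The panel's own assays for the members carry human names, and their primer and probe sequences were not in the sources used here.

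The 6 mouse genes of the family lie in pairs at 3 places. Mir181a-1 (chr1:137966455-137966541, plus strand) is followed after 97 bases by Mir181b-1 (chr1:137966639-137966718). Mir181a-2 (chr2:38852735-38852810, plus strand) is followed after 1019 bases by Mir181b-2 (chr2:38853830-38853918). The third pair is on the minus strand of chromosome 8, with miR-181c-5p at chr8:84178924-84178945 and Mir181d at chr8:84178716-84178787. By gene order in RefSeq, the chromosome 2 pair lies within the span of Nr6a1, a nuclear receptor gene on the opposite strand, and of Nr6a1os, a long non-coding RNA gene on the same strand. No other gene of that table spans the other pairs. MiR-181a-5p is identical from Mir181a-1 and Mir181a-2, so its ratio cannot be assigned to either gene, whereas miR-181c-5p comes from 1 gene.

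The 3′ strands of the miR-181a hairpins were on the panel too, and their sequences differ between the genes. Whether the panel's assays separate them was not tested. These 3′ strands are shown within their hairpins, with the mature strands of both arms in capitals.
Mir181a-1: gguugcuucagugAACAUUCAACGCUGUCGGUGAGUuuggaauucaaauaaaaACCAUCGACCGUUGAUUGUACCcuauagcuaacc
Mir181a-2: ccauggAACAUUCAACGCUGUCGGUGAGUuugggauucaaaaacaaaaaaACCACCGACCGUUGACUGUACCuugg
The first capital run is the same in both hairpins, and the second differs by U5C and U16C (from Mir181a-1 to Mir181a-2, counted from the 5′ end of the 3′ strand). U5C lies in the seed of these strands, which reads CCAUCGA for Mir181a-1 and CCACCGA for Mir181a-2. The panel's miR-181a-2# assay names the 3′ strand of Mir181a-2. The panel's miR-213 carries the old name of the 3′ strand of Mir181a-1, and RefSeq lists miR-213 as a synonym of that gene. The 3′ strand of Mir181c has the same seed as that of Mir181a-1 and differs from it by U16G and U19G.

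MiR-181a was the member listed above 1. The authors' deposited table gave 1.28, or 0.35 on the log2 scale, and 396 of the 528 miRNA names with a ratio had a lower one. It thus lay near the 75th percentile of the panel, which was 1.28, against a panel median of 1.01. MiR-181c was the member listed below 1. The authors' deposited table gave 0.693, which is -0.53 on the log2 scale and 1.44-fold below 1, and 100 of the 528 names (18.9%) were listed lower. It lay below the 25th percentile of the panel, 0.777. Between the members lay 294 names (55.7%). Among names of the A set, the 25th and 75th percentiles were 0.795 and 1.19, and both members lay outside them. At least 1.5-fold from 1 were 0 of 2 members, against 36.4% of the 528 names, 18.8% above 1 and 17.6% below. Among the 295 names of the A set, to which both members belong, that share was 28.5%, 12.9% above 1 and 15.6% below. Above 1 at any distance was 1 of 2 members, against 50.4% of all names and 47.8% of those of the A set. The median of the members' log2 ratios was -0.09, beside 0.01 over all names and -0.03 over those of the A set; with members on opposite sides, this median describes neither.

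**Figure D1:**
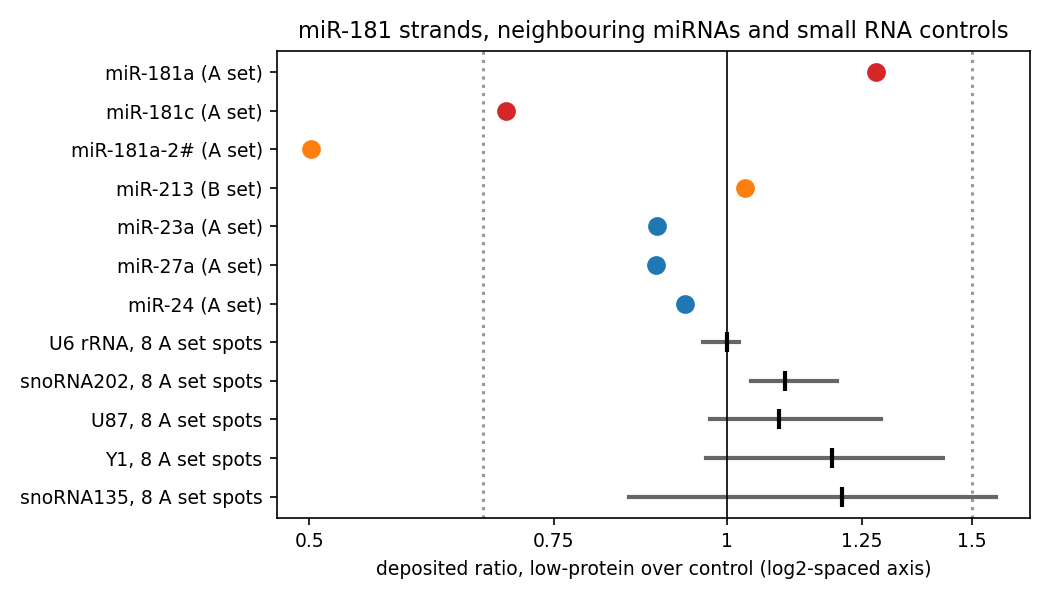
Deposited ratios, low-protein over control, on a log2-spaced axis, for the members miR-181a and miR-181c (red), the 3′ strands of the miR-181a hairpins (orange), the miRNAs next to Mir181c on chromosome 8 (blue) and the 5 small RNA controls of the A set (grey bar, lowest to highest of 8 spots; black tick, median). Points are single spots without error, dotted lines mark 1.5-fold, and miR-181a at 1.28 lies right of 1 while miR-181c at 0.693 and miR-181a-2# at 0.502 lie left.

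**Figure D2:**
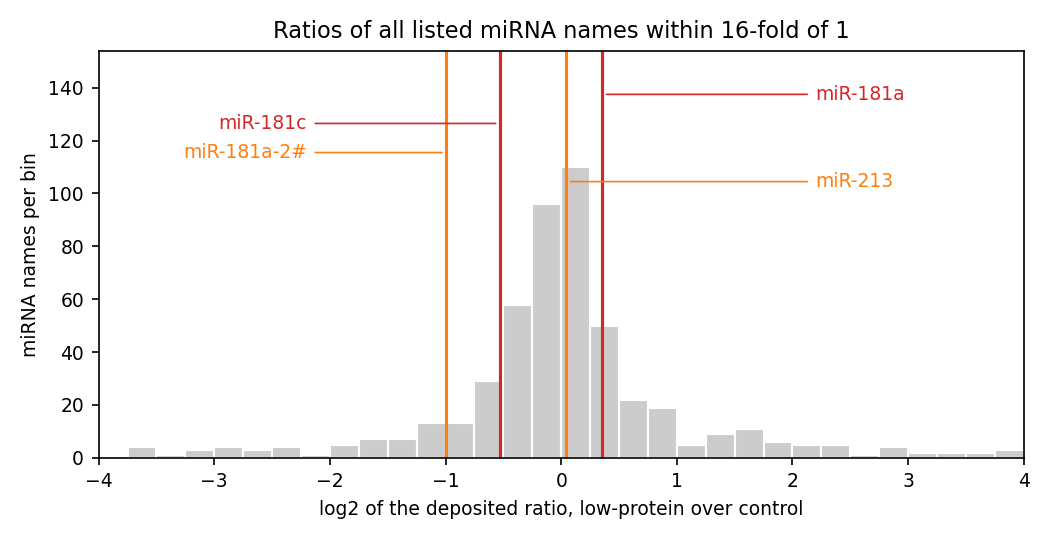
Number of miRNA names (vertical axis) by the log2 of their ratio (horizontal axis, bins of 0.25), with 24 names beyond 16-fold outside the plot and vertical lines for the miR-181 strands. The members, at 0.35 and -0.53, stand on the shoulders of the central peak, miR-213 at 0.04 within it and miR-181a-2# at -0.99 further left.

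The 3′ strands did not share the position of miR-181a. For miR-181a-2# the authors' deposited table gave 0.502, or 1.99-fold below 1, the lowest of the miR-181 strands, with 67 of 528 names (12.7%) lower. It was the only one of these 4 strands past 1.5-fold. It lay 2.55-fold from miR-181a, listed above 1, whose ratio pools the identical 5′ strands of Mir181a-1 and Mir181a-2. For miR-213 the authors' deposited table gave 1.03, with 275 names (52.1%) lower, close to the panel median and 1.24-fold from miR-181a. The 3′ strands of the miR-181a genes thus lay 2.05-fold apart. This distance crosses the assay sets, since miR-213 is in the B set and the other 3 strands are in the A set. In the B set the plant assay ath-miR159a, a plant sequence that mice lack, gave ratios of 2.59 to 3.37 over 8 spots. In the A set, which holds both members and miR-181a-2#, 2 of its 8 spots had a ratio, 0.139 and 1.96. The part of such plant assay signal in the values of miR-213 and the other miR-181 strands was not tested.

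The distance between the members was compared with how far other related assays lay apart. MiR-181a and miR-181c lay 1.85-fold apart (0.88 on the log2 scale). Among A set families whose names differ in a letter only, as these do, 18 others had exactly 2 members listed; their median distance was 1.13-fold, and 3 pairs lay further apart than the miR-181 pair. These were miR-133a and miR-133b, muscle miRNAs at 1.98 and 0.794, miR-302a and miR-302b, embryonic stem cell miRNAs at 2.63 and 0.106, and miR-466b and miR-466h at 0.134 and 1.81, all from the authors' deposited table. In 6 of the 18 pairs the members lay on opposite sides of 1. The larger letter families gave 49 pairs, which share members, with a median distance of 1.16-fold and a widest of 1.57-fold. Thus 0 of 49 lay further apart than miR-181a and miR-181c. Most of these pairs are of let-7 names. The let-7, miR-30 and miR-29 names among them return in a comparison below, which is therefore not a separate one. These distances are descriptions of single values, and letter names do not ensure a shared seed.

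A wider yardstick was the pair of assays that carry the same miRNA name once the species prefix is removed. Such assays may be for sequences of different species. Of 38 such pairs, 10 lay further apart than miR-181a and miR-181c. Of the 12 with both assays in 1 set, 2 did, miR-1 and miR-351, and the median distance was 1.38-fold. The 1.85-fold distance between the members was wider than this median. The 38 pairs reached 3.7e+07-fold (miR-673), and only 12 of them stay in 1 set, as the members do. Lying inside their range therefore says little about the members. As the per-sample columns could not be matched to samples, the distance was not tested against the spread between replicates. MiR-181a and miR-181a-2#, a 5′ and a 3′ strand name, lay 2.55-fold apart and on opposite sides of 1. They are not arms of 1 hairpin alone, since miR-181a also comes from Mir181a-1. Within the A set 24 other hairpin names had more than 1 strand name listed, giving 26 pairs with a median distance of 1.39-fold, and a name without an arm may repeat an arm listed beside it. Of these 26 pairs, 12 were on opposite sides of 1. Further apart than miR-181a and miR-181a-2# were 6 pairs, those of miR-125a, miR-142, miR-331, miR-342, miR-380 and miR-582, of which 4 were on opposite sides of 1. The widest, miR-331, was at 36.4-fold, and the miR-142 arms were at 3.93-fold.

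**Figure D3:**
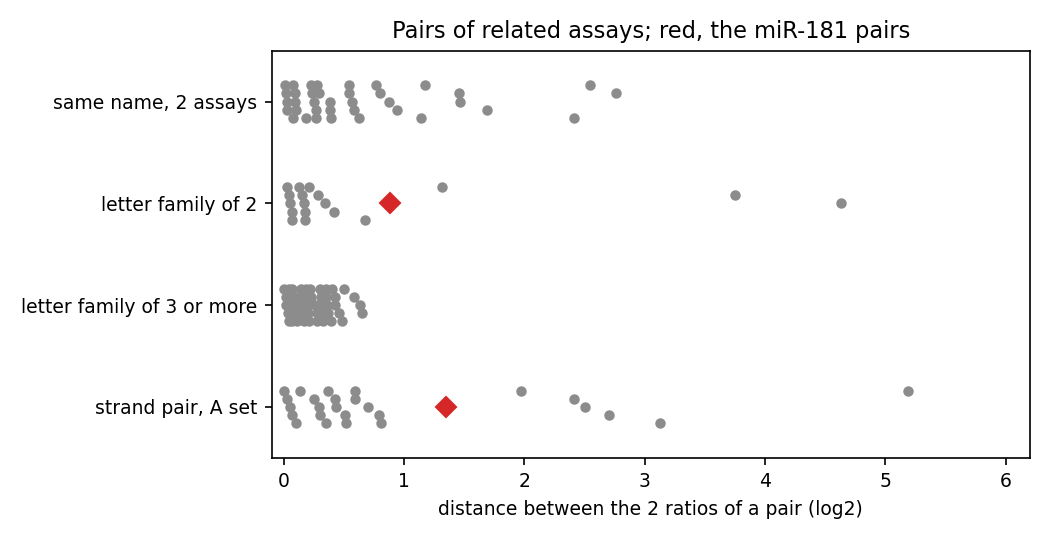
Distance between the ratios of a pair on the log2 scale (horizontal axis). Shown are assays of 1 name (species prefix removed), letter families of the A set and strand names of 1 hairpin name in the A set. Grey points are other pairs, red diamonds the miR-181 pairs, and vertical scatter only separates points. The miR-181a and miR-181c pair at 0.88 has 3 of 18 families of its kind to its right. The miR-181a and miR-181a-2# pair has 6 of 26 pairs to its right, and 1 pair of assays of the same name lies beyond the axis limit of 6.

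Both members sit in the same block of the A set, so a change of reference moves them by the same amount and leaves their 1.85-fold distance as it is. The deposited ratios are relative to U6, a spliceosomal RNA: over the 8 A set spots of U6 the mean log2 ratio was 0.00. The other controls of the A set, the small nucleolar RNAs snoRNA135, snoRNA202 and U87 and the cytoplasmic RNA Y1, averaged 0.20 on that scale, so ratios to them are lower. Against these 4 controls together miR-181a was at 1.12 and miR-181c at 0.604. Over 11 references (each control over its set or at its spot in the block, and the 4 together) miR-181a ran from 0.994 to 1.28 and was above 1 with 10; below 1 it came only with the U87 spot of its block. MiR-181c ran from 0.538 to 0.693, below 1 with all 11 and at least 1.5-fold below with 9. The panel moved the same way: with the 4 controls together, miRNA spots at least 1.5-fold below 1 went from 95 to 130 of 566 with a ratio. Panel counts under the single references were not made. MiR-181a-2# ran from 0.397 to 0.502, below 1 with all 11. It and miR-181c were highest with the deposited U6 reference, so staying below 1 follows from the other references being higher. The 11 references also overlap, since each control enters more than once. MiR-213 went either way, from 0.721 with Y1 to 1.29 with U87, whose B set mean includes a spot at 0.133 by the authors' deposited table.

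**Figure D4:**
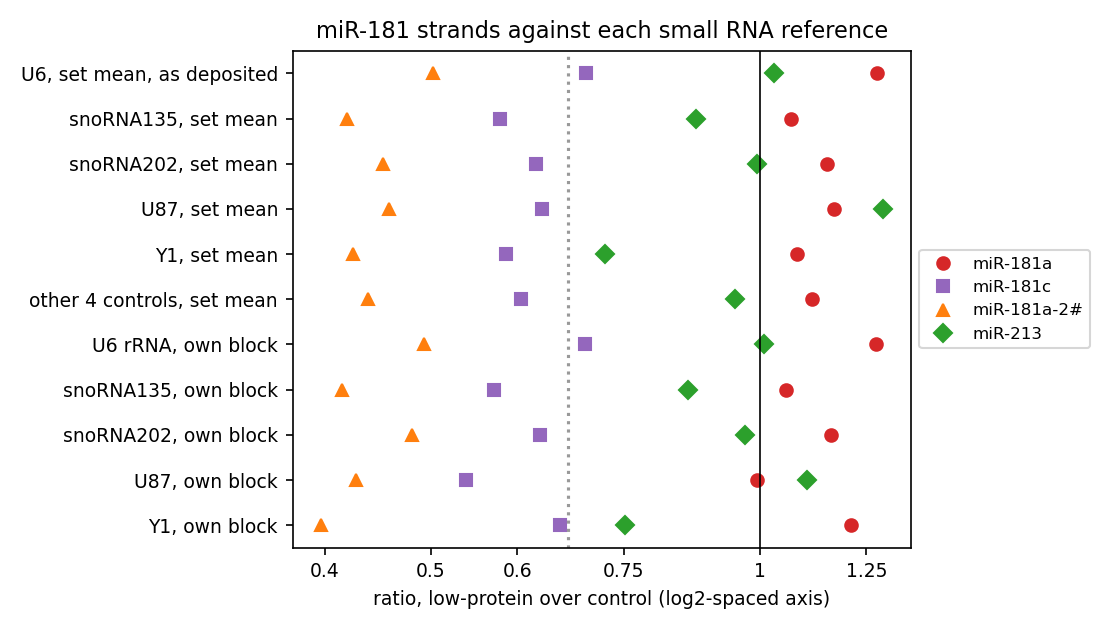
Ratio, low-protein over control, on a log2-spaced axis for the 4 miR-181 strands (symbols) under each of 11 small RNA references (rows); the solid line marks 1 and the dotted line 1.5-fold below. MiR-181c and miR-181a-2# stay left of 1 in all rows, miR-181a lies right of it except with U87 of its block, and miR-213 falls on either side.

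On chromosome 8 the next miRNA genes after Mir181c and Mir181d in RefSeq's gene order are Mir23a, Mir27a and Mir24-2, a cluster known from blood vessel and muscle biology. Their main strands were listed below 1 like miR-181c but nearer to it, with miR-23a at 0.890, miR-27a at 0.889 and miR-24 at 0.931 in the authors' deposited table. MiR-24 is also made from a second gene elsewhere. These 3 values span 1.05-fold, and the lowest of them lies above miR-181c.

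Beside the miR-181 members were set 3 seed families of the A set chosen for comparison, each with more members listed and a narrower range than 1.85-fold. Among let-7 miRNAs and miR-98, brakes on growth, 8 of 9 were above 1, with let-7f lowest at 0.840 and miR-98 highest at 1.35 by the authors' deposited table, a 1.60-fold range. The miR-30 family had 3 of 5 above 1 and the miR-29 family, which acts on matrix genes, 1 of 3, each with a 1.32-fold range. None of these 17 miRNAs was 1.5-fold from 1, against 28.5% of the 295 names of the A set. With the reference moved to the other 4 controls these families shift by the same 0.20 as miR-181a and miR-181c, and their ranges stay as they are.

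Because miR-181a is abundant in lymphoid cells, miRNAs of immune cells were set beside it. Of 6 such miRNAs, 4 were above 1 and 2 below. MiR-150, of mature lymphocytes, was at 1.78 by the authors' deposited table and miR-155, of activated immune cells, at 1.59, both further above 1 than miR-181a. The same deposited table gave miR-146a, a brake on inflammatory signalling, at 0.842 and miR-142-5p, of blood cells in general, at 0.305, while the other strand of that hairpin, miR-142-3p, was at 1.20. These markers lay on both sides of 1, and their part in the miR-181 ratios was not tested. The listed islet endocrine miRNAs had 3 of 5 above 1, among them miR-375, the main islet miRNA, at 1.17 in the authors' deposited table. Past 1.5-fold was 1 of the 5, miR-7b, at 0.523 there, against 36.4% of all 528 names. Of markers for other cells, 1 of 3 acinar, 0 of 2 endothelial, 4 of 6 blood cell (5 of them also in the immune list) and 2 of 5 fibroblast and stellate names were above 1. All 5 fibroblast and stellate names, with spots averaged, were past 1.5-fold, 2 above and 3 below. Over all 528 names that share was 36.4%. By name they ran from 0.403 for miR-199a to 7.14 for miR-199b in the authors' deposited table, further from 1 than either miR-181 member. Of this list, miR-143 at 0.459 averages 2 assays that lay 5.84-fold apart. The acinar miR-217 at 1.32 averages 2 assays 1.92-fold apart, so single spots of these names need not share the name's position. The part of all these markers in the miR-181 ratios was not tested. Levels behind these ratios were not analysed here, so the islet label was not checked against marker levels.

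The direction of all ratios rests on the heading of the deposited column, low-protein against control. The study is known for naming miR-199a-3p as raised in low-protein islets, whereas the authors' deposited table lists it at 0.422. If the column were turned, miR-181a would lie below 1 and miR-181c above. The opposite positions of the members and their distance do not depend on the heading.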

How the data were processed

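Total RNA of islets from 6 LP0.5 and 6 Control samples was measured by TaqMan real-time PCR, per the labels' protocols. The authors deposited linear ratios (fold values), a single value per spot; per the file headers they set low-protein over control. Limma is named in the submitters' processing notes without role or version. For averaging, detection limit and genome build: not given in the sources used here. Another table's 12 columns of per-sample values match no sample label and were not used, so limma, detection counts and replicate checks were not run. Nothing says that samples came from separate animals.

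Ratios were converted to log2. Spots of 1 miRNA name, after removal of the species prefix, were averaged. Sets were split by spot code (8 blocks each). Named miRNAs were the family, its other strands, its chromosome 8 neighbours and the lists given; panel names miR-7 and miR-199a stood for miR-7a and miR-199a-5p, and miR-126# for miR-126-5p. Members and lists were chosen with earlier results of these data known. Letter families, paired assays, strand pairs and single references were chosen after values were seen. Re-centring and counting were tested on simulated data. Sequences come from RefSeq (GRCm38.p6), matched by name. Python 3.11.15, numpy 2.4.6, pandas 2.3.3 and matplotlib 3.10.9 were used.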

Additional observations from a re-analysis of the deposited data

How the results depend on the processing

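A value was taken as moved when it changed by more than 0.13 on the log2 scale, the mean SD of control spots in the A set. For miR-181a, miR-181c and their median in turn, log2 ratios moved from 0.35, -0.53 and -0.09 to 0.16, -0.73 and -0.28 with snoRNA135, snoRNA202, U87 and Y1 together as reference. Single references, added after the data were seen, gave 0.09, -0.79 and -0.35 (snoRNA135), 0.20, -0.68 and -0.24 (snoRNA202), 0.22, -0.66 and -0.22 (U87) and 0.11, -0.77 and -0.33 (Y1). Spots of the members' own block gave 0.08, -0.81 and -0.36 (snoRNA135), 0.22, -0.67 and -0.23 (snoRNA202), and -0.01, -0.89 and -0.45 (U87). These moves follow from the alternatives' construction. With U6 or Y1 of the block, or the set's miRNA median as centre, each moved by less than 0.13, and the mean in place of the median, or spots counted singly, left the list value as it was. Members at least 1.5-fold below 1 went from 0 to 1 (miR-181c) with the 4 other controls and stayed 0 at 2-fold. Over all miRNA spots that reference turned the split at 1.5-fold from 105 above and 95 below to 91 and 130, so the share above went from 52.5% to 41.2% (47.5% to 58.8% if the column were turned). The planned limma alternatives (reference, detection limit, replicates left out) were not run. No paired analysis was possible because the columns used carry no replicate numbers. Depth, here the amplification cycle behind each ratio, was not analysed.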
